A study of Mus musculus with 16 samples.

Results

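The circadian clock and clock output genes described here are Dbp, Tef, Hlf, Cry1, Cry2, Per1, Per3, Nr1d1, Nr1d2 and Ciart, 10 of the 23724 genes with reads in the long-read data. They were selected by name, with earlier results of these samples known, so the differences between genotypes and between regions, and the isoform shares, are given for them as a description. RNA came from the cortex and the striatum of male mice at 3 months of age. R6/2 mice express exon 1 of human mutant HTT from a transgene in a mixed B6CBA background, and non-transgenic (NT) mice lack it. Transgene reads are not analysed here. The groups Cortex NT, Cortex R6/2, Striatum NT and Striatum R6/2 had 4 samples each, 16 samples in all. The labels do not say that each sample is a separate mouse, so p-values measure the spread between these samples. All mice were kept in a 12-h light and dark schedule, and the time of day at which tissue was taken is not given in the sources used here. The tissue was dissected whole, so fewer cells of a type and less RNA per cell cannot be told apart.

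In the mammalian clock, CLOCK and BMAL1 (encoded by Arntl) bind E-box sequences and switch on the period (Per) and cryptochrome (Cry) genes, whose proteins then hold CLOCK and BMAL1 back. Nr1d1 and Nr1d2 encode the REV-ERB nuclear receptors, which repress Arntl, and Ciart encodes CHRONO, another repressor of CLOCK and BMAL1. Dbp, Tef and Hlf encode the PAR bZIP transcription factors, which carry the rhythm to output genes by binding D-box sequences. Levels of most of these transcripts change over the day in many tissues, the brain included.

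Reads were counted per isoform. A gene count is the sum over known isoforms, incomplete splice matches (ISM, reads that hold only part of an annotated chain of exons) and the NIC and NNC classes, which have new combinations of splice sites or new splice sites. Between 203081 and 1350502 such reads were counted per sample. Gene levels are given as CPM (read counts relative to the library size, scaled by TMM), on which 3 reads correspond to 2.41 CPM in the deepest and 14.1 CPM in the shallowest sample. Striatum NT 1, NT 2, R6/2 2 and R6/2 3 had 2 deposited sets of counts each, taken here to be sequencing runs and summed. Their mean isoform length per read was between 2141 and 2225 nt, against 1618 to 1885 nt in the striatal samples of 1 run, and 2335 of 7694 genes (30.3%) differed between samples of 2 and 1 runs. The number of runs was therefore a term in the striatal fits. Summed choroid plexus markers (Ttr, Kl and Folr1) stood at 10008 CPM in Striatum NT 3, 909 in Cortex NT 4, 1149 in Cortex R6/2 2 and 1528 in Cortex R6/2 3. They lay below 500 CPM in the other 12 samples. The 9 markers of striatal projection neurons summed to 9843 to 14329 CPM in Striatum NT and to 334 to 469 CPM in Cortex NT. Cortical excitatory neuron markers summed to 108.4 to 160 CPM in Cortex NT and at most 44.0 CPM in Striatum NT.

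Some of the promoters hold letters that clock factors are known to bind, and the stretches with E-boxes or D-boxes are shown because these letters are the sites named in the clock mechanism above. RefSeq windows of 300 bases, from 250 before to 50 after a start site (GRCm38.p6), matched all 10 members in 12 windows. The E-box CACGTG, which reads the same on both strands, was found for 4 of the 10 members (Ciart, Cry1, Per1 and Tef), against 8.09% of 27025 genes with a window. The D-box TTATGTAA, searched on both strands, was found for 1 of the 10 members, Per3, and for 1.106% of all genes. AGGTCA, the core that REV-ERB and ROR receptors bind, was found on either strand for Nr1d2 and Per1 and for 18.1% of all genes. The cAMP response element TGACGTCA was found for Hlf and for 2.03% of all genes. The windows of Dbp, Cry2 and Nr1d1 held none of these letters. The stretches below run 5′ to 3′ on the gene's strand, end before any annotated exon, and have E-boxes or D-boxes in capitals.
Ciart: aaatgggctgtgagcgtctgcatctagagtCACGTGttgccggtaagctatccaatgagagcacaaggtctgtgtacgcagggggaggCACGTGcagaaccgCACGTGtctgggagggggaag
Cry1: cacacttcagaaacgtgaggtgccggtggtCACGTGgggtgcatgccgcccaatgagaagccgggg
Per1: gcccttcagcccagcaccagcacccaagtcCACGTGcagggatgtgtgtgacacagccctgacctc
Tef: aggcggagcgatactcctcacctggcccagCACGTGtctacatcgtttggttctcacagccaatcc
Per3: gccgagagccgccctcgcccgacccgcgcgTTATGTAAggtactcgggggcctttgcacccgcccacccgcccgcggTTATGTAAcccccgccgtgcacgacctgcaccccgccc
The Ciart stretch lies at chr3:95882252-95882374 on the minus strand and holds 3 E-boxes, whose first bases are at -116, -58 and -44 from the start site. The Cry1 stretch (chr10:85185079-85185144, minus strand) holds 1 E-box, the Per1 stretch (chr11:69098753-69098818, plus strand) holds 1, and the Tef stretch (chr15:81811246-81811311, plus strand) holds 1. The window of an upstream Tef start also held an E-box (chr15:81802546-81802551, first base at -127). It lies in an annotated exon and is not shown. In Per3 (chr4:151044786-151044900, minus strand) the 2 D-boxes begin at -205 and -158. A match of letters is no evidence that a factor binds there.

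Among the PAR bZIP outputs, Dbp was far lower in R6/2 mice in both regions, and Tef was called lower in the striatum but not in the cortex. Dbp (ENSMUSG00000059824, chr7:45705088-45710203, plus strand) had 324, 365, 230 and 316 CPM in Cortex NT 1 to 4 and 68.7, 80.5, 68.4 and 93.5 CPM in Cortex R6/2 1 to 4. In the striatum it had 370, 627, 455 and 381 CPM in NT 1 to 4 and 148, 139, 166 and 110 CPM in R6/2 1 to 4. The highest R6/2 sample lay below the lowest NT sample in each region. The log2 difference was -2.02 (SE 0.19, 4.05-fold lower) in the cortex and -1.74 (SE 0.19, 3.34-fold lower) in the striatum. Within striatal samples of 1 run the log2 ratio of mean CPM was -1.70 and within those of 2 runs -1.71, with 2 samples per genotype in each. Dbp had 685 cortical and 1850 striatal reads, more than any other member, so its values carry the least counting error of the list.

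Tef (ENSMUSG00000022389, chr15:81802421-81826863, plus strand) had 30.9, 36.7, 30.3 and 55.1 CPM in Cortex NT 1 to 4 and 23.5, 23.6, 17.8 and 22.3 CPM in Cortex R6/2 1 to 4. These groups did not overlap, although they rested on 7 to 29 reads per sample. In the striatum Tef had 102, 212, 97.9 and 75.2 CPM in NT 1 to 4 and 57.9, 62.2, 80.2 and 34.9 CPM in R6/2 1 to 4, where R6/2 3 lay above NT 4. The log2 difference was -0.89 (SE 0.29) in the cortex, which did not pass the test, and -1.09 (SE 0.24, 2.12-fold lower) in the striatum. Hlf (ENSMUSG00000003949, chr11:90336536-90390895, minus strand) had 2 to 15 reads per cortical sample. It had 7.72, 32.4, 8.67 and 15.2 CPM in Cortex NT 1 to 4 and 12.7, 11.8, 6.84 and 22.3 CPM in Cortex R6/2 1 to 4, which overlapped widely. In the striatum Hlf had 30.2, 39.4, 30.9 and 18.8 CPM in NT 1 to 4 and 12.9, 20.7, 19.5 and 9.98 CPM in R6/2 1 to 4. Only NT 4, with 4 reads, lay within the R6/2 range, and the log2 difference was -0.95 (SE 0.26).

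**Figure D1:**
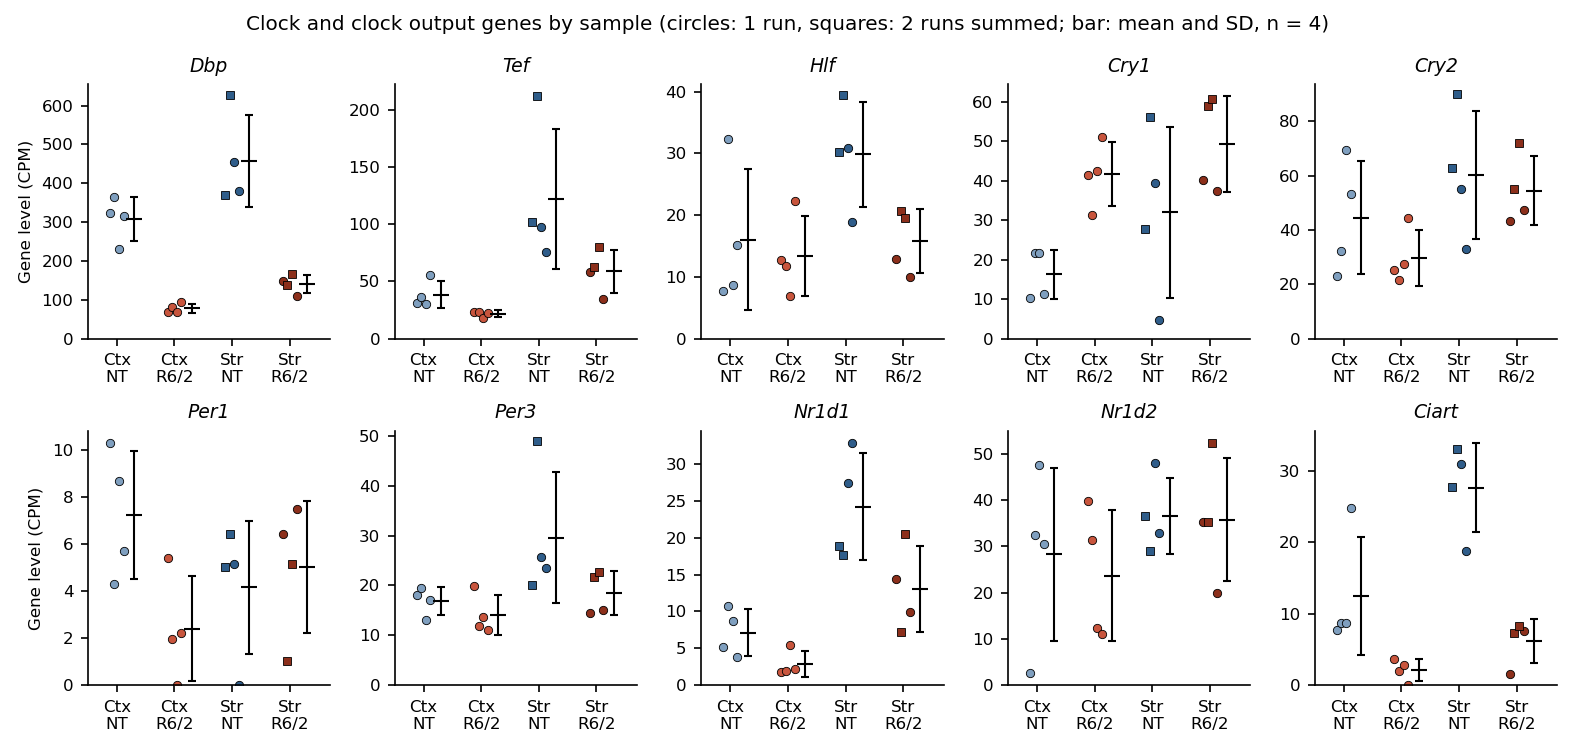
Gene level (CPM, vertical axis from 0) of the 10 members in each of the 16 samples, by region and genotype. Circles are samples of 1 run, squares are striatal samples of 2 summed runs, and bars give the mean and SD of 4 samples. Dbp and Ciart are lower in every R6/2 sample than in any NT sample of the same region, and Cry1 is higher in every R6/2 sample of the cortex than in any NT sample.

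Of the repressors, Ciart was called lower in R6/2 mice in the striatum and Cry1 was called higher in the cortex. Ciart (ENSMUSG00000038550, chr3:95878503-95882251, minus strand), whose promoter held the 3 E-boxes shown above, had 27.7, 33.0, 30.9 and 18.8 CPM in Striatum NT 1 to 4 and 1.61, 7.26, 8.23 and 7.49 CPM in Striatum R6/2 1 to 4. The groups were apart, with a log2 difference of -2.20 (SE 0.35, 4.59-fold lower). Striatal reads of Ciart were few, 85 in NT and 19 in R6/2 samples. In the cortex it had 7.72, 8.64, 8.67 and 24.7 CPM in NT 1 to 4 and 3.61, 1.96, 2.74 and 0 CPM in R6/2 1 to 4, which came from 22 and 5 reads. The 0 in Cortex R6/2 4 allows up to 6.68 CPM, which covers counting error only. The cortical groups were apart, but Ciart was too low there for the filter, and the unfiltered fit gave a log2 difference of -2.42 (SE 0.67).

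Cry1 (ENSMUSG00000020038, chr10:85131700-85185064, minus strand) had 10.3, 21.6, 21.7 and 11.4 CPM in Cortex NT 1 to 4 and 41.6, 31.4, 42.4 and 51.2 CPM in Cortex R6/2 1 to 4. The groups did not overlap and the log2 difference was 1.39 (SE 0.32, 2.62-fold higher). In the striatum Cry1 had 27.7, 56.3, 39.5 and 4.70 CPM in NT 1 to 4 and 40.2, 59.1, 60.7 and 37.4 CPM in R6/2 1 to 4. Those groups overlapped, the lowest NT sample held 1 read, and the log2 difference was 0.45 (SE 0.30), which did not pass the test. It was 0.21 without Striatum NT 1 and 0.76 without Striatum NT 2. Cry2 (ENSMUSG00000068742, chr2:92403646-92434043, minus strand), the other cryptochrome, had 23.2, 32.4, 69.4 and 53.2 CPM in Cortex NT 1 to 4 and 25.3, 21.6, 27.4 and 44.5 CPM in Cortex R6/2 1 to 4. In the striatum it had 62.9, 90.1, 54.9 and 32.9 CPM in NT 1 to 4 and 43.4, 54.9, 72.0 and 47.4 CPM in R6/2 1 to 4. Both pairs of groups overlapped, with log2 differences of -0.55 (SE 0.33) in the cortex and -0.23 (SE 0.21) in the striatum. Without 1 sample they ranged from -0.78 to -0.34 and from -0.34 to -0.06.

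The period genes were sparsely read. Per1 (ENSMUSG00000020893, chr11:69095217-69109960, plus strand) had 4, 2, 2 and 3 reads in Cortex NT 1 to 4, and 3, 1, 0 and 1 reads in Cortex R6/2 1 to 4. Its striatal reads were 4, 8, 3 and 0 in NT 1 to 4 and 4, 1, 5 and 3 in R6/2 1 to 4. Per1 was too low for the filter in both regions, so its genotype difference was not tested. The unfiltered fit gave a log2 difference of -1.47 (SE 0.80) in the cortex and -0.22 (SE 0.59) in the striatum. Per3 (ENSMUSG00000028957, chr4:151003652-151044665, minus strand) had 18.0, 19.4, 13.0 and 17.1 CPM in Cortex NT 1 to 4 and 19.9, 11.8, 13.7 and 11.1 CPM in Cortex R6/2 1 to 4. Its striatal levels were 20.1, 49.1, 25.8 and 23.5 CPM in NT 1 to 4 and 14.5, 21.8, 22.6 and 15.0 CPM in R6/2 1 to 4. Groups overlapped in both regions, and the striatal log2 difference was -0.74 (SE 0.31). It was -0.30 without Striatum NT 2, the highest sample.

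Nr1d1 (ENSMUSG00000020889, chr11:98767932-98775333, minus strand) had 1 to 5 reads per cortical sample, or 5.15, 10.8, 8.67 and 3.803 CPM in NT 1 to 4 and 1.81, 1.96, 5.47 and 2.23 CPM in R6/2 1 to 4. In the striatum it had 18.9, 17.7, 27.5 and 32.9 CPM in NT 1 to 4 and 14.5, 7.26, 20.6 and 9.98 CPM in R6/2 1 to 4, with a log2 difference of -0.73 (SE 0.36). Striatum R6/2 3 lay within the NT range, and without it the difference was -1.27. Without 1 sample the striatal difference of Nr1d1 ranged from -1.27 to -0.50. Its log2 ratio of mean CPM was -1.30 within striatal samples of 1 run and -0.39 within those of 2 runs, where the genotypes overlapped. Nr1d2 (ENSMUSG00000021775, chr14:18204054-18239127, minus strand) had 2.57, 32.4, 47.7 and 30.4 CPM in Cortex NT 1 to 4 and 39.8, 31.4, 12.3 and 11.1 CPM in Cortex R6/2 1 to 4. In the striatum it had 36.5, 29.0, 48.1 and 32.9 CPM in NT 1 to 4 and 35.4, 35.2, 52.5 and 19.97 CPM in R6/2 1 to 4. The log2 differences of Nr1d2 were -0.21 (SE 0.48) and 0.03 (SE 0.27), each smaller than its SE. Without 1 sample they ranged from -0.59 to 0.07 and from -0.24 to 0.29, so neither had a stable sign.

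**Figure D2:**
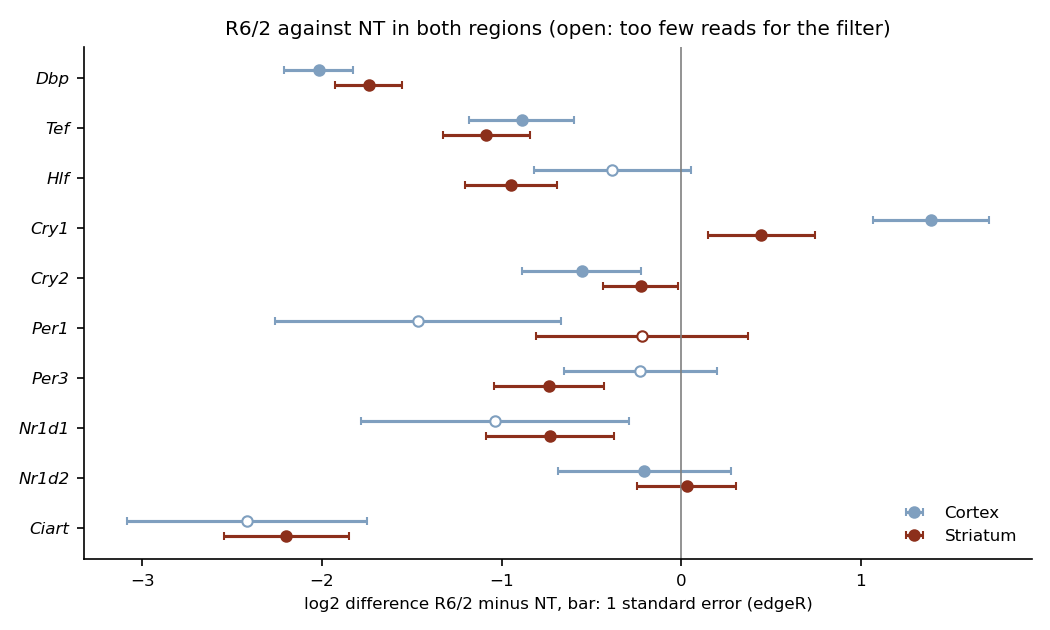
Log2 difference of R6/2 minus NT for each member (horizontal axis, bar 1 SE, edgeR) in the cortex and the striatum. Filled points passed the filter on low counts and open points come from the unfiltered fit. Dbp and Ciart lie near -2 in both regions, and Cry1 lies above 0 in both.

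Across all genes, edgeR's quasi-likelihood test with Benjamini-Hochberg adjustment called 198 of 6128 genes (3.23%) in the cortex at an adjusted p under 0.05, 28 higher and 170 lower in R6/2 mice. Of the 5 members that passed the filter there, 2 were called, Dbp (lower) and Cry1 (higher). In the striatum 332 of 7694 genes (4.32%) were called, 38 higher and 294 lower, and of the 9 members that passed the filter 3 were called, Dbp, Ciart and Tef, all lower. Because these contrasts were known when the members were named, nothing is read from the counts. The median log2 difference of members that passed was -0.55 in the cortex and -0.74 in the striatum, where the median of all genes tested was 0.02 and -0.00. The Cry1 call was lost without Cortex NT 4, R6/2 3 or R6/2 4, at log2 differences of 1.21, 1.39 and 1.29, and without the 3 cortical samples high in choroid plexus markers, at 1.37. The Tef call in the striatum was lost without NT 3, R6/2 2, R6/2 3 or R6/2 4, at log2 differences of -1.07, -0.97, -1.14 and -1.02, and without NT 2, at -0.73. Among genes with a mean of at least 10 reads per sample, 616 of 6014 cortical genes (10.2%) did not overlap between genotypes, and neither did 476 of 7705 striatal genes (6.18%). Members with that many reads numbered 5 and 9, of which 3 (Dbp, Tef and Cry1) and 2 (Dbp and Ciart) did not overlap.

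The difference between regions in the R6/2 effect was fitted over all 16 samples. It is made of the same 4 groups as the genotype differences known when the members were named, so it too is a description for them. It was called for 3 of 7360 genes (0.0408%) and for 0 of the 8 members that passed the filter. None of the 8 had an unadjusted p under 0.05, and DESeq2 called 0 as well. The striatal effect minus the cortical effect was 0.31 (SE 0.26) for Dbp, -0.17 (SE 0.40) for Tef and 0.34 (SE 0.71) for Ciart on the log2 scale. The largest difference in size was that of Cry1, at -0.92 (SE 0.46).

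Levels were also compared between regions. In neither genotype was the share of members called above that of all genes, so nothing is read from their number. In NT mice Tef was the member called between regions, 1 of 8 tested, beside 2470 of 7360 genes (33.6%), with a log2 difference of striatum minus cortex of 1.10. In R6/2 mice Tef (0.93) and Dbp (0.62) were called, 2 of 8, beside 2020 genes (27.4%). For Dbp the 4 groups were ordered Striatum NT (458.1 ± 119 CPM, SD, n = 4), Cortex NT (309 ± 56.8), Striatum R6/2 (141 ± 23.3) and Cortex R6/2 (77.8 ± 11.9). Its neighbouring groups did not overlap. The highest Cortex NT sample (365 CPM) lay just under the lowest Striatum NT sample (370 CPM). The lowest Striatum R6/2 sample (110 CPM) lay above the highest Cortex R6/2 sample. In NT mice the fitted log2 difference of Dbp, striatum minus cortex, was 0.31 (SE 0.20), which was not called. How many of all genes do not overlap between regions was not counted, so nothing is read from these gaps. For Tef the order was Striatum NT (122 ± 61.5 CPM), Striatum R6/2 (58.8 ± 18.6), Cortex NT (38.3 ± 11.6) and Cortex R6/2 (21.8 ± 2.73). Here the first pair and the middle pair overlapped.

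The number of runs was a contrast that the choice of members did not use. Beside the 30.3% of genes given above, 0 of 9 members that passed the filter were called between striatal samples of 2 and 1 runs by edgeR, and 0 by DESeq2. Tef (log2 difference of 2 runs minus 1 run 0.62, SE 0.25, adjusted p = 0.0758 by edgeR) and Cry2 (0.50, SE 0.22, adjusted p = 0.094 by edgeR) were the 2 members with an unadjusted p under 0.05. Dbp differed by 0.13 (SE 0.18). The median over members was 0.46, beside 0.07 over all genes, and 8 of 9 members had higher estimates with 2 runs.

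Of 20 other genes of the clock and its outputs, 8 passed the filter in the cortex and 11 in the striatum. This list too was drawn up with earlier results of these data known, so its calls and p-values are a description. Usp2, a ubiquitin protease whose transcript is rhythmic in many tissues, was lower in R6/2 mice in both regions. It had 157, 110, 73.7 and 148 CPM in Cortex NT 1 to 4 and 47.0, 51.1, 52.0 and 49.0 CPM in Cortex R6/2 1 to 4. Its striatal levels were 130, 185, 132 and 103 CPM in NT 1 to 4 and 65.9, 84.0, 80.2 and 47.4 CPM in R6/2 1 to 4. The groups were apart in both regions. The log2 difference was -1.34 (SE 0.22, adjusted p = 0.00137 by edgeR) in the cortex and -1.02 (SE 0.17, adjusted p = 0.00474 by edgeR) in the striatum, lower in 4 of 4 samples each. The striatal call was lost without the term for the number of runs (adjusted p = 0.106 by edgeR), and the cortical call without the 3 samples high in choroid plexus markers (adjusted p = 0.201 by edgeR), at similar log2 differences of -1.02 and -1.29.

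No other gene of those 20 that passed the filter was called in either region, and the genes below the filter were not tested. Clock, the partner of BMAL1, had 20.9 to 25.9 CPM in Cortex NT and 32.5 to 36.9 CPM in Cortex R6/2, which did not overlap, with a log2 difference of 0.58 (SE 0.27, adjusted p = 0.28 by edgeR). In the striatum it differed by -0.07 (SE 0.33, adjusted p = 0.967 by edgeR). Csnk1d, a kinase that acts on PER proteins, differed by 0.64 (SE 0.29, adjusted p = 0.259 by edgeR) in the cortex and by 0.84 (SE 0.25, adjusted p = 0.0846 by edgeR) in the striatum. Csnk1e, the related kinase, differed by -0.39 (SE 0.26) and -0.33 (SE 0.35), and Rora, an activator of Arntl, by 0.04 (SE 0.26) and 0.22 (SE 0.20). Pdxk, a target of the PAR bZIP factors, differed by -0.38 (SE 0.36) in the cortex and -0.51 (SE 0.23, adjusted p = 0.278 by edgeR) in the striatum. Por, an electron donor to cytochrome P450 enzymes, differed by -0.01 (SE 0.22) and -0.28 (SE 0.19). The median log2 difference over the genes of this list that passed the filter was -0.03 in the cortex and -0.20 in the striatum.

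Some marker lists differed between genotypes and others did not. Summed astrocyte markers (8 genes, all with reads in every group) lay between 2102 and 3690 CPM in Cortex NT and between 1371 and 1787 CPM in Cortex R6/2, and between 1891 and 4017 CPM in Striatum NT and 1408 and 1895 CPM in Striatum R6/2, where the ranges overlapped. Of these 8 genes, all tested, 2 were called lower in the cortex and 1 in the striatum. Immediate early genes (7 genes, with Fosb at 0 in Cortex NT) summed to 175 to 555 CPM in Cortex NT and 90.4 to 156 CPM in Cortex R6/2, and to 172 to 247 and 53.1 to 109 CPM in the striatal groups. Of the 7, 1 passed the filter in the cortex and was called lower, and 2 passed it in the striatum, of which 1 was called lower. Glucocorticoid-induced genes (5 genes, none at 0) summed to 203 to 354 CPM in Cortex NT, 157 to 256 CPM in Cortex R6/2, 198 to 470 CPM in Striatum NT and 161 to 180 CPM in Striatum R6/2, with overlap in the cortex, and of the 3 that passed the filter in each region 1 was called lower. Striatal projection neuron markers (none at 0) summed to 2004 to 3312 CPM in Striatum R6/2, and 7 of 9 were called lower there. In the cortex, 3 of them passed the filter and 2 were called lower. Microglial markers (7 genes) averaged 252 CPM in Cortex NT, 243 in Cortex R6/2 and 369 in both striatal groups, and none of the 4 cortical and 7 striatal genes tested was called. Of endothelial markers 0 were called, with 1 tested in cortical and 3 in striatal samples. Of cortical excitatory neuron markers 3 were tested, in the cortex, and 0 called. Of 6 oligodendrocyte markers 0 were called in the cortex and 1, lower, in the striatum. The part of these levels in the values of the clock genes was not tested.

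Reads of each member were divided by isoform class. Complete names the class here and includes short annotated isoforms, such as some of Tef, so it does not mean that a full transcript was read from end to end. Nearly all Dbp reads were complete, that is known, NIC or NNC (99.7% of 685 cortical and 99.7% of 1850 striatal reads). The 4-exon isoform ENSMUST00000080885 of 1837 nt held 97.7% of complete cortical reads and 97.6% of complete striatal reads. Its share was 98.2% of Cortex NT, 95.9% of Cortex R6/2, 97.9% of Striatum NT and 96.5% of Striatum R6/2 complete reads. Ciart was also mostly complete (96.3% of 27 cortical and 93.3% of 104 striatal reads), and its 6-exon isoform ENSMUST00000036418 held 82.5% of complete striatal reads. Cry1 was read through all 13 exons of ENSMUST00000020227 (3026 nt) in 90.4% of complete cortical and 91.8% of complete striatal reads, and 75 such reads were counted in the cortex, 16 in NT and 59 in R6/2 samples. These sums are not scaled for depth. With ISM reads left out, the scaled log2 difference of Cry1 in the cortex was 1.44. The gene-level difference is thus also seen in complete reads, while its call was lost when ISM reads were left out.

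Other members were seen in parts. Complete reads made up 12.5% of 16 cortical and 3.57% of 28 striatal reads of Per1, none of them known isoforms, and 10.0% and 16.1% of those of Per3. Nr1d1 had 0 complete among 18 cortical reads (95% Wilson interval up to 17.6%) and 59 complete among 100 striatal reads (interval 49.2% to 68.1%), all of the 8-exon isoform ENSMUST00000064941. In the striatum these were 33 NT and 26 R6/2 reads. Cry2 had 27.1% complete of 133 cortical reads (interval 20.2% to 35.2%) and 60.5% of 370 striatal reads (55.5% to 65.4%). Of its reads, 78 in the cortex and 105 in the striatum belonged to 1 single-exon ISM isoform of 2175 nt, beside 23 and 176 of the 12-exon isoform ENSMUST00000090559. Among striatal samples the complete share of Cry2 was 67.0% (61.4% to 72.2%) with 2 runs and 38.8% (29.2% to 49.5%) with 1 run. For all members other than Dbp together it lay between 61.5% and 74.2% with 2 runs and between 41.2% and 67.4% with 1 run (two-sided exact permutation test, p = 0.0857), and for all genes between 86.2% and 88.0% and between 79.9% and 84.4% (p = 0.0286 by the same exact test, the smallest that 4 against 4 allows). Cortical samples all had 1 run, so region and number of runs cannot be told apart in these shares except against striatal samples of 1 run.

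**Figure D3:**
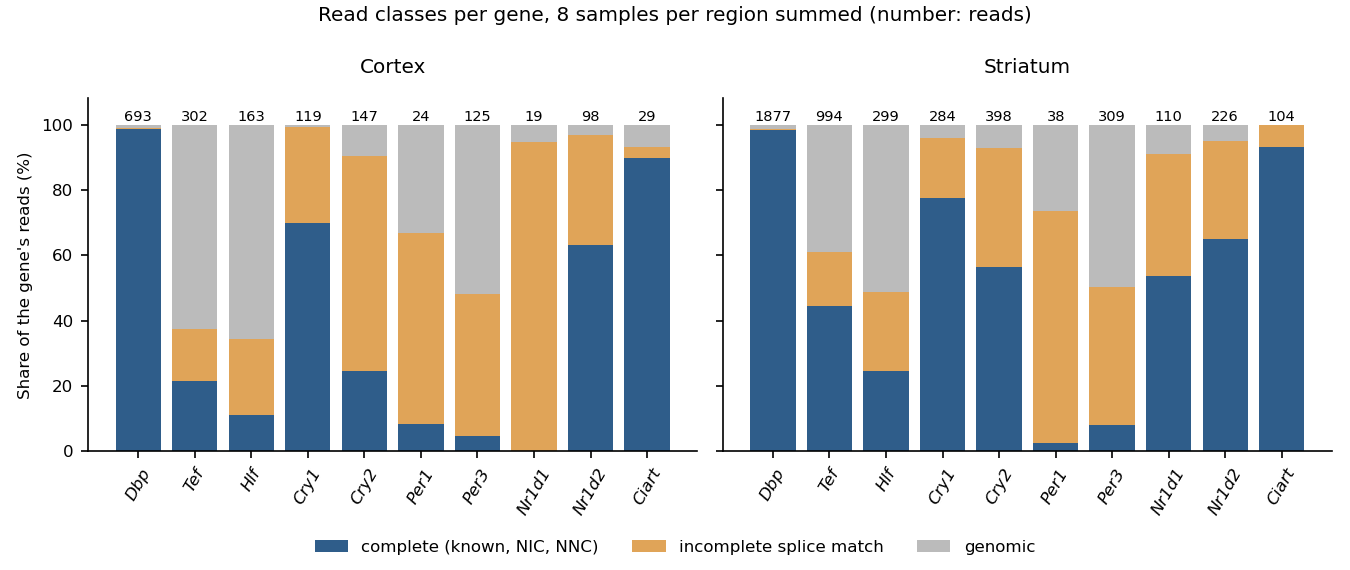
Share of each member's reads (percent, vertical axis) that were complete, ISM or of the genomic class, summed over 8 samples per region. The number above each bar is the number of reads. Dbp and Ciart are almost wholly complete, while genomic-class reads make up 62.6% of Tef and 65.6% of Hlf reads in the cortex.

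Tef starts at more than 1 promoter, and its complete reads were split over several isoforms. In the striatum the 4-exon isoform ENSMUST00000109553 (4401 nt, from the upstream start) held 30.2% of 443 complete reads and the 4-exon isoform ENSMUST00000023024 (4079 nt, from the start downstream of the E-box stretch shown above) held 28.2%. The 2-exon isoform ENSMUST00000164673, annotated as a retained intron, held 27.5%. ENSMUST00000023024 had 96 of 296 complete reads in Striatum NT and 29 of 147 in Striatum R6/2, a share per sample of 19.1% ± 18.8 and 20.9% ± 6.51 (SD, n = 4). ENSMUST00000109553 had 82 and 52 reads, a share of 25.7% ± 10.9 and 34.3% ± 5.26. In the cortex the retained-intron isoforms ENSMUST00000168632 and ENSMUST00000164673 held 36.9% and 30.8% of 65 complete reads and ENSMUST00000023024 13 of the 65. Nr1d2 was mainly the 8-exon isoform ENSMUST00000090543 (79.0% of 62 cortical and 80.3% of 147 striatal complete reads), with the retained-intron isoform ENSMUST00000143308 at 12.2% in the striatum. Hlf was mainly the 4-exon isoform ENSMUST00000004051 in the striatum (50.7% of 73 complete reads), with ENSMUST00000107881 at 16.4%, and had 18 complete reads in the cortex. Per3 complete reads were mainly the 12-exon retained-intron isoform ENSMUST00000128283, 16 of 25 in the striatum.

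Isoform usage between genotypes was tested with diffSpliceDGE of edgeR. It was called for 11 of 3060 genes (0.359%) in the cortex and for 0 of the 2 members with enough reads (Dbp and Tef). In the striatum it was called for 20 of 4443 genes (0.45%) and for 0 of 5 members (Dbp, Tef, Hlf, Cry2 and Nr1d2). No member had an unadjusted p under 0.05 in either region, by Simes' method or by the F test per gene. With these read numbers the shares of Tef differed between samples by more than between genotypes.

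Reads of the genomic class match no annotated chain of exons and were kept out of gene counts. They were frequent for Tef (189 cortical and 388 striatal reads), Hlf (107 and 153) and Per3 (65 and 154), and all of the isoforms in this class with at least 10 reads had 1 exon. For Per3 they separated the genotypes, where its gene counts did not. Genomic-class reads of Per3 had 25.7, 32.4, 39.0 and 24.7 CPM in Cortex NT 1 to 4 and 10.8, 3.93, 8.21 and 8.90 CPM in Cortex R6/2 1 to 4. In the striatum they had 32.7, 48.3, 41.2 and 42.3 CPM in NT 1 to 4 and 14.5, 14.5, 8.23 and 9.98 CPM in R6/2 1 to 4. The groups were apart in both regions. A single isoform of 1 exon and 2368 nt held 37 of the 65 cortical and 96 of the 154 striatal reads, 29 in Cortex NT, 8 in Cortex R6/2, 74 in Striatum NT and 22 in Striatum R6/2. Per3 lies within Camta1 on the same strand (976 reads counted to Camta1), and the counts do not give the position of this isoform, so reads of these 2 genes are uncertain. On the opposite strand, Nr1d1 shares 1075 bases with Thra and Dbp 737 bases with Sphk2.

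Among genes with a mean of at least 5 genomic-class reads per sample, 142 of 1867 cortical genes (7.61%) did not overlap between genotypes, 87 of them lower and 55 higher in R6/2 samples. In the striatum 128 of 2785 genes (4.6%) did not overlap, 120 lower and 8 higher. The median log2 ratio of genomic-class levels over all these genes was -0.05 in the cortex and -0.31 in the striatum. Of the members with that many reads (Tef, Hlf and Per3), 1 of 3 was apart in each region, Per3. For Tef, genomic-class reads had 77.2, 49.7, 82.4 and 53.2 CPM in Cortex NT 1 to 4 and 36.1, 51.1, 45.1 and 22.3 CPM in Cortex R6/2 1 to 4, with 1 R6/2 sample inside the NT range. In the striatum they had 60.4, 94.1, 75.5 and 141 CPM in NT 1 to 4 and 38.6, 53.9, 46.3 and 69.9 CPM in R6/2 1 to 4. Most of them (168 of 189 and 349 of 388) were of 1 single-exon isoform of 5479 nt. For Hlf they were high in Striatum NT 3 and NT 4 (72.1 and 80.0 CPM), both of 1 run, and 23.3 to 25.2 CPM in NT 1 and NT 2, both of 2 runs. Striatum R6/2 1 and R6/2 4, both of 1 run, had 28.9 and 22.5 CPM of Hlf genomic-class reads. R6/2 2 and R6/2 3, both of 2 runs, had 10.4 and 8.23 CPM. R6/2 1 lay above NT 1 and NT 2, so the striatal groups overlapped. With the genomic class added to gene counts, 4 members were called in the cortex and 5 in the striatum, Tef and Per3 being added in the cortex and Hlf and Per3 in the striatum. Calls over all genes rose as well, from 198 to 246 of 7011 in the cortex and from 332 to 495 of 8718 in the striatum. The share of genomic-class reads of all genes was 5.30% to 6.07% in striatal samples of 2 runs and 8.71% to 12.2% in those of 1 run, and each genotype had 2 striatal samples of each kind. The part of this share in the values above was not tested.

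**Figure D4:**
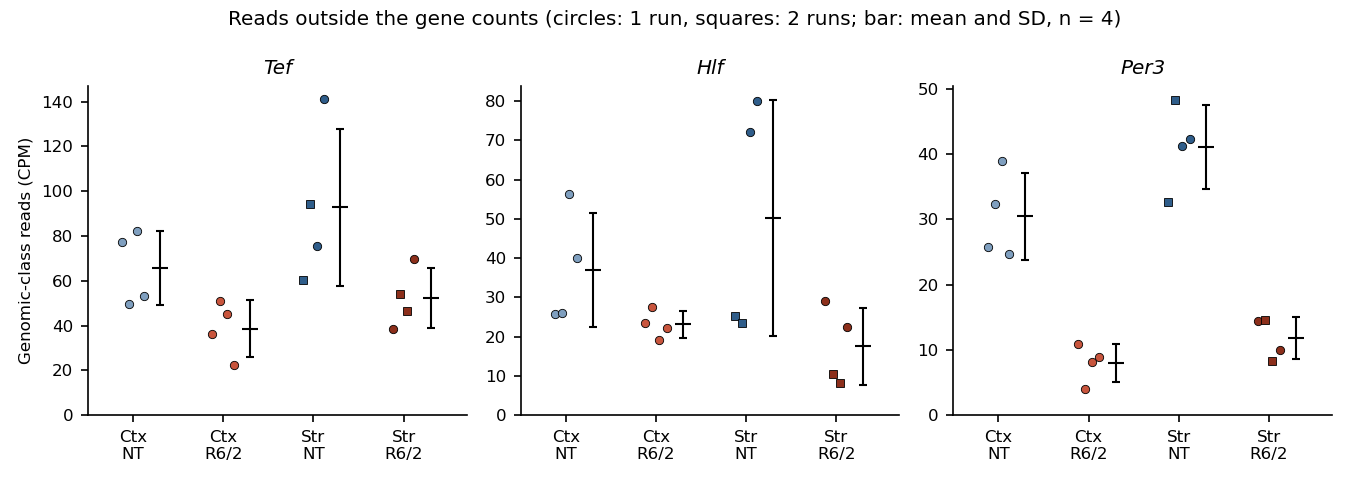
Genomic-class reads (CPM, vertical axis from 0) of Tef, Hlf and Per3 in each of the 16 samples. Circles are samples of 1 run, squares are samples of 2 runs, and bars give the mean and SD of 4 samples. Per3 lies between 3.93 and 14.5 CPM in R6/2 samples and between 24.7 and 48.3 CPM in NT samples.

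Of 4753 genes with a mean of at least 20 reads per sample, those most like Dbp over the 16 samples were Gabrd (Pearson r of log2 CPM 0.978), Ckb (0.950) and Crip2 (0.950). Gabrd, the delta subunit of the GABA-A receptor, had mean levels of 235, 56.5, 325 and 106 CPM in Cortex NT, Cortex R6/2, Striatum NT and Striatum R6/2. Nr1d1 was most like Penk (0.920), 1700037H04Rik (0.910) and Meis2 (0.906), which had more reads in the striatum than in the cortex. Per1 was most like Brms1 (0.748), Idh2 (0.739) and Stoml2 (0.739), at 0 to 8 Per1 reads per sample, which is too sparse to be read as a likeness. These values cover genotype, region and depth together and are a description.

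Samples of the cortex and striatum with the same genotype and label number were compared for the 5 members with a mean of at least 10 reads per sample in both regions, as deviations of log2 CPM from the group mean over 8 label numbers. Whether a number marks 1 mouse is not stated in the labels. Pearson r was -0.15 for Dbp, -0.37 for Tef, 0.50 for Cry1, -0.46 for Cry2 and 0.13 for Nr1d2, and Spearman's rho was -0.40, -0.12, 0.50, -0.48 and 0.36. No member passed after adjustment over the 5 (two-sided exact permutation over pairings, unadjusted p from 0.209 to 0.752 for r and 0.216 to 0.793 for rho, adjusted p for r from 0.629 to 0.752). Without the 2 samples farthest from the cortical median, r was 0.05, -0.17, 0.87, -0.57 and -0.44 in the same order. With striatal deviations taken within the same genotype and number of runs, r for Cry1 was 0.77 (two-sided exact permutation p = 0.0119, adjusted p = 0.0595).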

How the data were processed

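PacBio long-read cDNA libraries of cortex and striatum (16 samples, 4 per region and genotype, grouped by the labels) were used. The authors made circular consensus reads, kept reads with a poly(A) tail, aligned them to mm10 with minimap2 (2.17-r941), corrected them with TranscriptClean and counted reads per isoform with TALON against Ensembl annotation, and these raw counts are what they deposited. There were 20 sets of counts, and the 2 sets of each of 4 striatal samples were summed and counted as 1 sample. What distinguishes these sets is not given in the sources used here, and they are called runs for short. The sequenced cDNA was amplified without molecular identifiers, so intervals and floors (3 reads) cover counting error only.

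Total reads per sample ranged from 252885 to 1496196. Counts were summed per gene over known, ISM, NIC and NNC isoforms. Levels are CPM with TMM factors over all samples, and log2 CPM used a prior count of 2. Genotype was tested per region with edgeR 4.0.16 (R 4.3.3, limma 3.58.1) by glmQLFit and glmQLFTest after filterByExpr. Striatal fits and the test of the difference between regions, over all 16 samples, also had a term for runs. Benjamini-Hochberg adjustment was over all genes tested, with a threshold of 0.05. Usage used diffSpliceDGE over complete isoforms with at least 10 reads. DESeq2 1.42.0, upper-quartile scaling, other filters, other read classes, a replicate block, no term for runs, the first set only and leaving out each sample were alternatives. Leaving out samples with choroid plexus markers above 500 CPM was added after seeing the data. Exact permutation tests, shares and figures used Python 3.11.15, scipy 1.17.1 and matplotlib 3.10.9. The fits were tested on simulated data.

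The members and all gene lists were chosen with earlier results of these data known. Values were given for all 10 members in every sample. Of 20 other clock genes, those past an adjusted p of 0.05 or with a mean of at least 20 reads per sample in either region were named. For Dbp, Nr1d1 and Per1 the 3 genes of highest Pearson r were named, and isoforms had to hold at least 10% of complete reads. Promoter sequences and motif shares came from RefSeq tables (GRCm38.p6), and gene positions and isoform names from GENCODE M21 on mm10.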

Additional observations from a re-analysis of the deposited data

Results flagged for a closer look

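Of 40 member groups of 4 samples, 3 held a sample far from the other 3 (gap to the nearest over the whole range above Dixon's critical value), and chance flags about 1 in 20 groups. Nr1d1 in Cortex R6/2 3 stood at 5.47 CPM (4 reads), against 1.81 to 2.23 CPM in the other 3. Ciart in Cortex NT 4 stood at 24.7 CPM (13 reads), against 7.72 to 8.67 CPM in the other 3, and this sample was among those high in choroid plexus markers. Ciart in Striatum R6/2 1 stood at 1.61 CPM (1 read), against 7.26 to 8.23 CPM in the other 3. All 3 rest on 13 reads or fewer, and the cause was not tested.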

How the results depend on the processing

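Of 149 alternatives to 9 counts of called genes, 22 moved a count by more than a set ratio, or to or from 0. Smaller changes, such as 3 to 2 members, are not among the 22. In 267 alternatives to 16 single-gene differences no called difference changed sign. Nr1d2, not called, did: in the cortex -0.21 became 0.13 with ISM left out, 0.04 without NT 3, 0.07 without R6/2 3 and 0.05 without samples high in choroid plexus markers, and in the striatum 0.03 ranged from -0.24 to 0.36. In the cortex, the 2 members called became 1 (Dbp) with ISM isoforms left out or samples high in choroid plexus markers left out (an alternative chosen after seeing the data), 4 with the genomic class added, and 1 to 2 without 1 sample. They became 3, with Ciart added, without a filter on low counts and with all 16 samples in one fit. Of the other clock genes 1 was called there, 2 without a filter on low counts (Timeless, named after its values were seen), 0 without the samples high in choroid plexus markers, and 1 to 2 without 1 sample. In the striatum the 3 members became 5 with the genomic class added, 1 (Dbp) with the first set of counts only, 2 without the term for runs (Tef lost), 2 with at least 10 reads in every sample of a group (Ciart not among them), and 2 to 4 without 1 sample. Of the other clock genes 1 was called there, 3 without a filter, 2 with the genomic class added, 2 with all 16 samples in one fit, 0 without the term for runs, 0 with the first set only (Usp2, adjusted p = 0.158 by edgeR), and 1 to 2 without 1 sample. Members called between 2 and 1 runs went from 0 to 2 with upper-quartile scaling, 1 without a filter, 2 with at least 10 reads in every sample of a group, 1 with ISM left out, and 0 to 1 without 1 sample. Counts for the difference between regions, usage and correlation were 0 in all alternatives run. The cause of these moves was not tested.

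Over all genes, calls without 1 sample ranged from 95 to 300 in the cortex (198 with all samples) and from 145 to 392 in the striatum (332), and the striatal count was 39 without the term for runs and 20 with the first set only. With the genomic class added, 246 genes were called in the cortex and 495 in the striatum. With label numbers as a replicate block, 2 members were called in the cortex and 2 in the striatum (Tef was not), and called genes went from 198 to 205 and from 332 to 182. The numbers did not pair all samples, since over 3709 genes deviations of same-numbered NT and R6/2 samples correlated at -0.11 to 0.26 in the cortex and -0.66 to 0.74 in the striatum. Cortex and striatum samples of the same genotype and number correlated at -0.25 to 0.59, over 0.1 in 5 of 8 pairs. Depth limits Per1, Nr1d1 and cortical Ciart most, where single reads move a level.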
